A study of Mus musculus with 6 samples.

Results

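Phospho1 encodes a phosphatase that frees phosphate from phosphocholine and phosphoethanolamine, and it is the gene named as knocked out in mice whose brown fat was profiled by RNA sequencing. Its row of the count tables was read together with those of 9 genes that overlap it or lie close to it on mouse chromosome 11, namely Zfp652, Abi3, Gngt2, Phb, Ngfr, Spop, Slc35b1, Fam117a and Kat7. The 10 genes were taken by symbol from 37620 gene identifiers, and all 10 were among the 12068 genes with enough counts to be tested. The libraries labelled KO came from PHOSPHO1 knockout mice, and the libraries labelled WT from wild-type mice. All mice had a C57BL/6 background and were 6 weeks old. Each group had 3 libraries, each library was made from 3 mice, and the material was the layer of mature adipocytes that floats after collagenase digestion of brown fat. How the knockout allele was made, and which exons it removes, is not given in the sources used here.

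Phosphocholine and phosphoethanolamine are the head groups from which cells build and into which they break down the main membrane phospholipids. Phospho1 is best known from bone and cartilage, where the phosphate it frees inside matrix vesicles starts mineral formation, together with the ectophosphatase Alpl and the sphingomyelinase Smpd3. Brown adipocytes burn lipid for heat in mitochondria-rich cells, and among the neighbours of Phospho1 is Phb, a ring protein of the inner mitochondrial membrane. The other neighbours have unrelated textbook roles, from a receptor for neurotrophins (Ngfr) to a histone acetyltransferase (Kat7).

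The exons of Phospho1 are mostly shared with other genes. In the GENCODE M21 annotation of build GRCm38, Phospho1 (ENSMUSG00000050860, plus strand) covers 2029 exonic bases, of which 1818 (89.6%) belong to Zfp652 exons too, on the same strand, and 1708 (84.2%) to Abi3 exons, on the other strand. All 843 annotated coding bases of Phospho1 lie in Zfp652 exons, and 798 of them in Abi3 exons as well. The 211 bases of the first exon, 10.4% of the gene, lie in no exon of any other gene. On the Zfp652 side the overlap comes from 1 of its 4 transcripts, which is annotated as a target of nonsense-mediated decay. On the Abi3 side it comes from 2 of 4 transcripts. RefSeq, by contrast, ends Zfp652 59.8 kb before Phospho1 begins, while its Abi3 and Phospho1 overlap.

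The same coding bases can be read in the transcripts of all 3 genes. They are shown because the letters of a short read from them do not tell Phospho1 from Zfp652. Only the strand, where it is kept, sets Abi3 apart. The first 30 bases of the last exon of the main Phospho1 transcript, from the GENCODE M21 transcripts of chromosome 11 on GRCm38, are given below as they stand in each transcript, 5′ to 3′. The plus-strand transcripts carry identical letters and the minus-strand Abi3 transcript carries their reverse complement. A second pair of sequences shows the place where the main Phospho1 transcript and the overlapping Zfp652 transcript part, with 15 bases on each side. The capitals mark the bases these transcripts share, and the lower-case letters mark what precedes them. That is the spliced upstream exon in the main Phospho1 transcript and unspliced exon in Zfp652. The 30 bases across this splice junction occur 0 times in the overlapping Zfp652 transcript. Another annotated Phospho1 transcript, however, begins its last exon at the same base as Zfp652 and so holds the letters printed for Zfp652. The second pair thus separates the main Phospho1 transcript from that of Zfp652, and not every Phospho1 transcript.
Phospho1: gacggcaggatggctgcgccgggcgcgcct
Zfp652: gacggcaggatggctgcgccgggcgcgcct
Abi3: aggcgcgcccggcgcagccatcctgccgtc
Phospho1 at the junction: cgatgcctatctaggGACGGCAGGATGGCT
Zfp652 at the same bases: tccccctgctcccagGACGGCAGGATGGCT

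**Figure D1:**
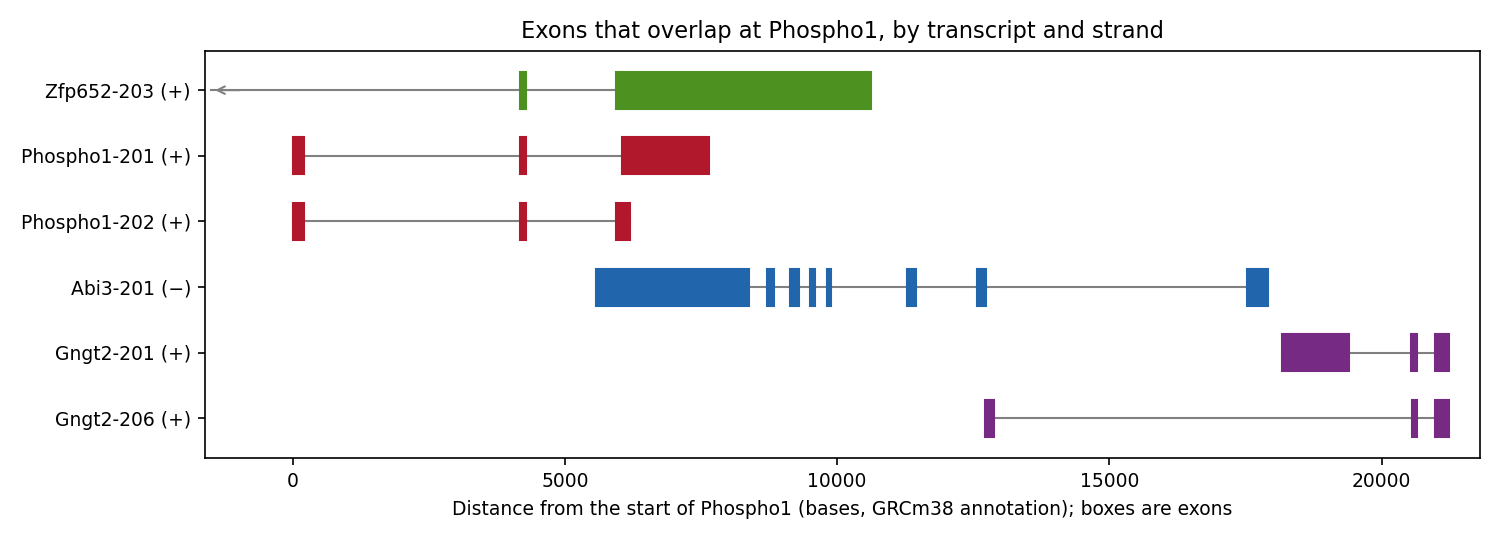
Exons (boxes) of the transcripts that overlap at Phospho1, drawn by distance in bases from the start of Phospho1 in the GRCm38 annotation, with the strand of each transcript in parentheses; an arrow marks a transcript that begins further left. The last 2 exons of the main Phospho1 transcript lie inside exons of the Zfp652 transcript, its last exon also lies inside the last exon of Abi3, and the first exon of Phospho1 stands alone.

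The neighbours further away do not share bases with Phospho1. Gngt2 (ENSMUSG00000038811) starts 5.1 kb beyond Phospho1, and 234 of its 1877 exonic bases (12.5%) are shared with Abi3 on the opposite strand. On the other side lie Phb (ENSMUSG00000038845) at 143.7 kb, Ngfr (ENSMUSG00000000120) at 236.8 kb, Spop (ENSMUSG00000057522) at 331.1 kb, Slc35b1 (ENSMUSG00000020873) at 432.7 kb, Fam117a (ENSMUSG00000038893) at 442.6 kb and Kat7 (ENSMUSG00000038909) at 514.3 kb. Phb, Ngfr, Spop, Slc35b1 and Kat7 share 0 exonic bases with another gene, and Fam117a has 91.2% of its own to itself. Abi3 (ENSMUSG00000018381) has 24.2% of its 4153 exonic bases to itself, and Zfp652 (ENSMUSG00000075595) 80.0% of 15444.

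The libraries differed in depth and in properties that touch several of the 10 genes. Totals ran from 10576800 to 13750632 counts in KO libraries and from 12132987 to 14239307 in WT libraries. Genes of the mitochondrial genome took 39.1% to 56.5% of counts in KO libraries and 39.3% to 54.3% in WT libraries. All 12 brown adipocyte markers were detected, with summed levels of 23500 to 31500 CPM in KO libraries and 20900 to 28100 CPM in WT libraries, where CPM are counts divided by library size after TMM scaling. Fabp4 alone averaged 15000 CPM in KO libraries and 14900 CPM in WT libraries, a large part of the sum. Of these 12, the deiodinase Dio2 (log2 fold change -2.08, edgeR adjusted p = 0.0175) and the coactivator Ppargc1a (-1.07, 0.0342) fell, while Cox7a1, a subunit of cytochrome oxidase, rose (1.02, 0.0455), and with the offsets each of these calls was lost. The slope of a library's log2 level on log2 transcript length, relative to the mean of all libraries, was -0.238, -0.093 and -0.249 in KO libraries 1, 2 and 3, against 0.306, -0.025 and 0.300 in WT libraries 1, 2 and 3. Long transcripts were thus relatively low in KO libraries, and the fold changes of the 10 genes are also given from a fit that takes the length and GC trend of each library as an offset. Skeletal muscle markers summed to 50 to 101 CPM in KO libraries and 44.7 to 933 CPM in WT libraries, the highest value being WT library 3. Erythroid and platelet markers summed to 1220 to 3530 CPM in KO libraries and 372 to 1390 CPM in WT libraries. Of these, 2 of 8 tested were higher and 0 lower, with a median log2 fold change of 1.41. Among all tested genes 1.63% were called higher and 7.52% lower. With the offsets 0 of these 8 erythroid and platelet markers passed, and their median was 0.92. The part of these properties in the values of the 10 genes was not tested.

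Among the 10 genes, Ngfr and Gngt2 were called higher and Spop lower in the libraries labelled KO, and the other 7 did not pass the threshold (adjusted p under 0.05, edgeR quasi-likelihood test with Benjamini-Hochberg adjustment over all tested genes). The 3 calls among 10 genes stand against a background of 9.16% of all 12068 tested genes called, 1.63% higher and 7.52% lower. In 4 of the 10 genes the groups did not overlap (Phospho1, Gngt2 and Ngfr with KO libraries above WT, Spop with KO below), against 35.4% of all tested genes (15.8% with KO above and 19.6% with KO below). The median log2 fold change of the 10 genes was 0.17, against 0.03 over all tested genes, and 4 of the 10 lay below 0, against 48.6% of tested genes. Without offsets 6 of the 10 had an unadjusted p under 0.05, against 30.8% of all tested genes. DESeq2 called 4 of the 10, where it called 1818 of 12156 genes, and limma-voom called 2, where it called 892 of 12068. With the length and GC offsets 0 of the 10 passed in edgeR, where 0.00829% of all tested genes did, and 6 had an unadjusted p under 0.05, against 23.1% of all tested genes. Offsets from the median transcript in place of the longest gave 0 calls among the 10 and 1.88% among all tested genes. In bulk tissue, fewer cells of a type and less RNA per cell cannot be told apart.

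**Figure D2:**
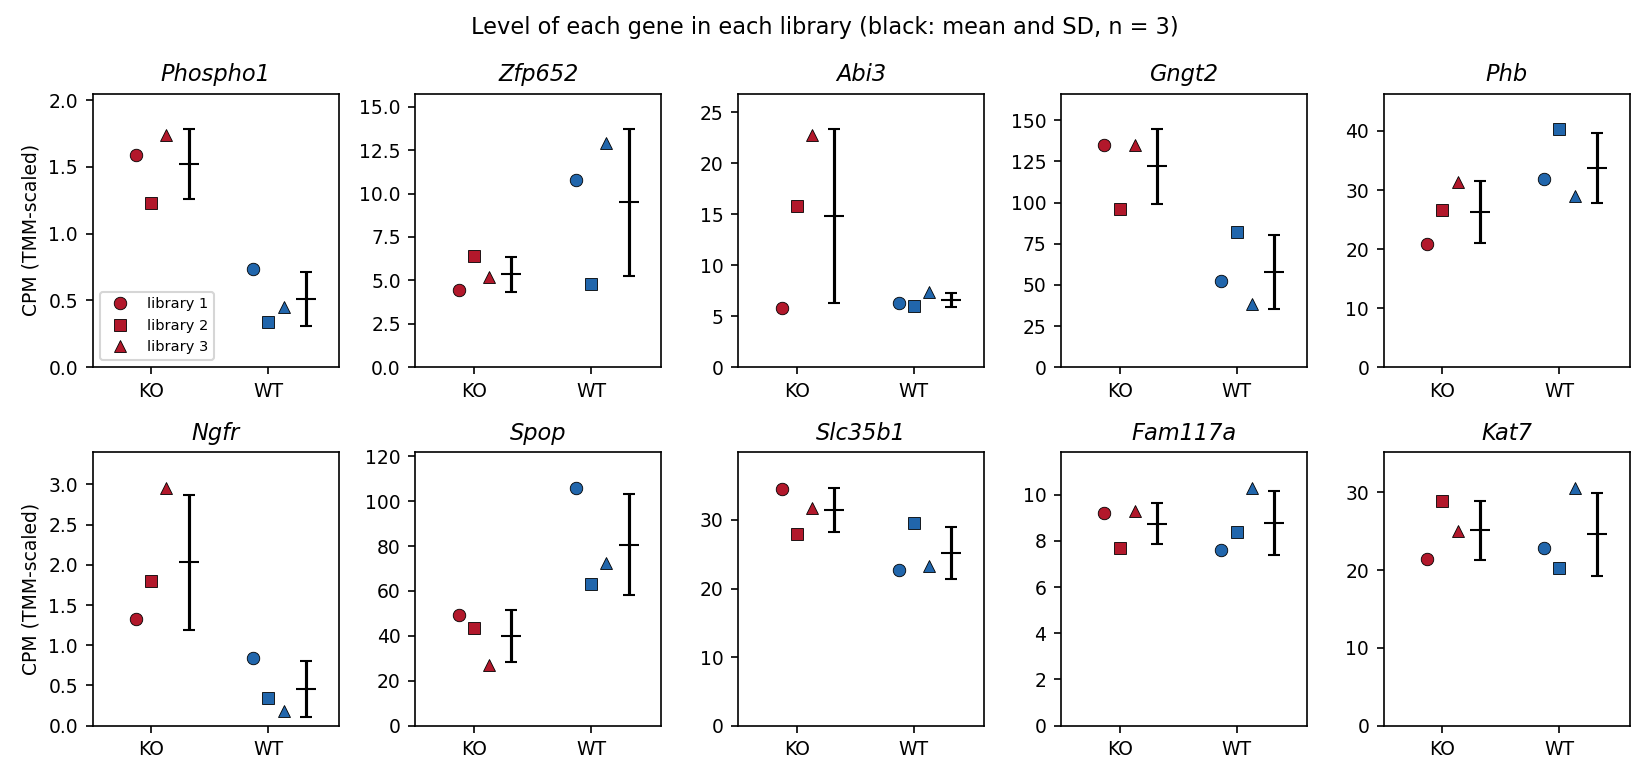
Level of each of the 10 genes in each library, in CPM on TMM-scaled library sizes, with KO libraries (red) left of WT libraries (blue), the symbol giving the library number and the black bar the mean and SD of 3 libraries. Phospho1, Gngt2 and Ngfr sit higher in all 3 KO libraries than in any WT library, Spop sits lower, and the other 6 genes overlap between groups.

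Phospho1, the gene the labels name as knocked out, was not lower in the libraries labelled KO. It held 18, 15 and 17 counts in KO libraries 1, 2 and 3, against 13, 5 and 5 counts in WT libraries 1, 2 and 3, which is 1.59, 1.23 and 1.74 CPM against 0.733, 0.341 and 0.449 CPM. Every KO library lay above every WT library, although the row holds only 50 counts in the KO libraries and 23 in the WT libraries together. The means were 1.52 ± 0.260 CPM in KO libraries and 0.508 ± 0.202 CPM in WT libraries (SD, n = 3 each). On the log2 scale the difference was 1.53 (SE 0.459) and missed the threshold (edgeR adjusted p = 0.0563), and with the offsets it was 1.01 (edgeR adjusted p = 0.199). It passed in 0 of 18 alternative fits, whose log2 fold changes ran from 1.01 to 1.92 with adjusted p from 0.0556 to 0.199. Only 4.15% of tested genes had a lower mean CPM than Phospho1. The row shows no decrease in the libraries labelled KO, but it rests on few counts and on exons mostly shared with Zfp652 and Abi3, so it checks the label little. Every direction given here is that of the libraries labelled KO.

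Zfp652 is a zinc-finger repressor of transcription that works with the corepressor Cbfa2t3, and its annotated exons contain the whole Phospho1 coding sequence. It held 50, 78 and 51 counts in KO libraries 1, 2 and 3, against 192, 70 and 144 counts in WT libraries 1, 2 and 3. On the CPM scale the values were 4.42, 6.40 and 5.21 in KO libraries, against 10.8, 4.78 and 12.9 in WT libraries. WT library 2 lay inside the KO range and the other WT libraries above it. The means were 5.34 ± 0.995 CPM in KO libraries and 9.51 ± 4.23 CPM in WT libraries (SD, n = 3 each), a difference of -0.83 on the log2 scale (SE 0.366, edgeR adjusted p = 0.150). With the offsets the difference was 0.03 (edgeR adjusted p = 0.957). Without WT library 2 it passed at -1.15 (edgeR adjusted p = 0.0329).

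Because the annotated exons coincide, Phospho1 and Zfp652 were also set against each other inside each library, where scaling between libraries has no effect. For every 100 Zfp652 counts there were 36.0, 19.2 and 33.3 Phospho1 counts in KO libraries 1, 2 and 3, against 6.77, 7.14 and 3.47 in WT libraries 1, 2 and 3. The lowest KO ratio was above the highest WT ratio. The mean log2 ratio was -1.78 ± 0.487 in KO libraries and -4.08 ± 0.559 in WT libraries (SD, n = 3 each), a difference of 2.29 (two-sided exact permutation test, p = 0.1, and no smaller value is possible with 3 libraries per group). The ratio still holds the length and GC trend, whose KO minus WT value (log2) was 0.51 for Phospho1 and -0.798 for Zfp652. With the offsets the log2 fold changes were 1.01 for Phospho1 and 0.03 for Zfp652. The part of the trend in the ratio was not tested. When the counts of both genes were added, a step chosen after seeing the data, the sums were 68, 93 and 68 in KO libraries and 205, 75 and 149 in WT libraries. That sum had a difference of -0.54 on the log2 scale (SE 0.349, edgeR adjusted p = 0.302). Zfp652 held most of these counts, 179 in KO and 406 in WT libraries together, against 50 and 23 for Phospho1. The sign of the sum therefore follows Zfp652 and says little about Phospho1 alone. How reads from the shared exons were assigned to these rows is not given in the sources used here.

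Abi3, on the opposite strand, is the Abi-family adaptor of the actin-regulating WAVE complex that is found mainly in leukocytes and microglia. It held 66, 193 and 223 counts in KO libraries 1, 2 and 3, against 112, 88 and 82 counts in WT libraries 1, 2 and 3. On the CPM scale the KO values of 5.84, 15.8 and 22.8 spread widely, against 6.32, 6.01 and 7.36 in WT libraries. KO library 1 lay below all WT libraries and the other KO libraries lay well above them. The means were 14.8 ± 8.51 CPM in KO libraries and 6.56 ± 0.709 CPM in WT libraries (SD, n = 3 each), with a difference of 1.17 on the log2 scale (SE 0.406, edgeR adjusted p = 0.0828) that was 1.12 with the offsets (edgeR adjusted p = 0.127). Offsets from the median transcript lowered the Abi3 difference to 0.78 (edgeR adjusted p = 0.236). DESeq2 called Abi3 higher (adjusted p = 0.0400), and so did edgeR without KO library 1, at 1.56 (adjusted p = 0.00732).

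Against Abi3, the Phospho1 ratio did not separate the groups. For every 100 Abi3 counts there were 27.3, 7.77 and 7.62 Phospho1 counts in KO libraries 1, 2 and 3, against 11.6, 5.68 and 6.10 in WT libraries 1, 2 and 3. The mean log2 ratio was -3.05 ± 1.05 in KO libraries and -3.66 ± 0.521 in WT libraries (SD, n = 3 each), a difference of 0.60 (exact two-sided permutation p = 0.5). Without KO library 1 the difference was -0.0004, so the positive difference rested on that library. Phospho1, Zfp652 and Abi3 added together, again chosen after seeing the data, gave 134, 286 and 291 counts in KO libraries and 317, 163 and 231 in WT libraries, a difference of 0.39 on the log2 scale (SE 0.347, edgeR adjusted p = 0.456).

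Gngt2, the gamma subunit of cone-photoreceptor transducin, was the most abundant of the 10 genes and rose in the KO libraries. It held 1524, 1169 and 1327 counts in KO libraries 1, 2 and 3, against 933, 1206 and 424 counts in WT libraries 1, 2 and 3. On the CPM scale this was 135, 95.9 and 135 in KO libraries, against 52.6, 82.3 and 38.1 in WT libraries, so the groups stood apart with WT library 2 closest to the KO range. The means were 122 ± 22.7 CPM in KO libraries and 57.7 ± 22.6 CPM in WT libraries (SD, n = 3 each), a difference of 1.08 on the log2 scale (SE 0.295, edgeR adjusted p = 0.0444). The call was lost with the offsets, at 0.65 (edgeR adjusted p = 0.119), and with total counts alone, at 0.79 (edgeR adjusted p = 0.188). It was also lost without KO library 1 (adjusted p = 0.0514), KO library 2 (0.0615), KO library 3 (0.135), WT library 1 (0.2) or WT library 3 (0.123), and held without WT library 2 at 1.43 (0.0177).

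Abi3 and Gngt2 lie next to each other and are both known from myeloid cells, so leukocyte markers were read beside them. All 17 markers were detected and 14 were tested, of which 1 rose, the lysozyme gene Lyz2 (log2 fold change 1.43, edgeR adjusted p = 0.0401), and 1 fell, the scavenger receptor Cd163 (-2.44, edgeR adjusted p = 0.0479). With the offsets both calls were lost, with Lyz2 at 1.04 (edgeR adjusted p = 0.104) and Cd163 at -2.10 (0.108). Without offsets 1.63% of all tested genes were called higher and 7.52% lower. The summed level of the markers was 291 to 790 CPM in KO libraries and 150 to 366 CPM in WT libraries. By library, the sum was 536.5, 291 and 790 CPM in KO libraries 1, 2 and 3, and 331, 366 and 150 CPM in WT libraries 1, 2 and 3. Gngt2 and the sum were both lowest in KO library 2 among KO libraries and in WT library 3 among WT libraries. Abi3 was lowest in KO library 1 and in WT library 2. Lyz2 alone averaged 349 CPM in KO libraries and 129 CPM in WT libraries, a large part of the sum. The part of the markers in the levels of Abi3 and Gngt2 was not tested.

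Ngfr, the p75 receptor for neurotrophins, had the highest log2 fold change of the 10 genes from very few counts. It held 15, 22 and 29 counts in KO libraries 1, 2 and 3, against 15, 5 and 2 counts in WT libraries 1, 2 and 3. On the CPM scale the values were 1.33, 1.80 and 2.96 in KO libraries, against 0.846, 0.341 and 0.179 in WT libraries. The raw counts of KO library 1 and WT library 1 were equal, and the groups stood apart only once counts were scaled to library size. The means were 2.03 ± 0.840 CPM in KO libraries and 0.456 ± 0.348 CPM in WT libraries (SD, n = 3 each), and Ngfr rose with a difference of 2.04 on the log2 scale (SE 0.546, edgeR adjusted p = 0.0426). With the offsets it was 1.90 (edgeR adjusted p = 0.0847) and with total counts alone 1.69 (edgeR adjusted p = 0.0702). The call held without KO library 1, at 2.26 (adjusted p = 0.0217). It was lost without KO library 2 (2.10, adjusted p = 0.0831), KO library 3 (1.66, 0.171), WT library 1 (2.86, 0.122), WT library 2 (1.85, 0.0729) or WT library 3 (1.69, 0.123).

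Ngfr is known from Schwann cells, nerve and some perivascular and stromal cells, and markers of those cells were read beside it. Of 11 Schwann cell and nerve markers 10 were detected and 8 tested, and 2 of them fell, among them the sodium channel-like gene Scn7a (log2 fold change -1.89, edgeR adjusted p = 0.0176), a call that was lost with the offsets (-0.91, edgeR adjusted p = 0.0904). Their sum was 111 to 130 CPM in KO libraries and 128 to 160 CPM in WT libraries. The defining factor Sox10 held 0, 3 and 1 counts in KO libraries and 4, 0 and 1 counts in WT libraries, and the nerve enzyme Th was at 0 in all 6. Pericyte and smooth muscle markers summed to 531 to 991 CPM in KO libraries and 922 to 1370 CPM in WT libraries, with 2 of 10 higher and 1 lower. Stromal markers summed to 1200 to 1580 CPM in KO libraries and 960 to 1120 CPM in WT libraries, with 2 of 9 higher and 0 lower. Beside these counts, 1.63% of all tested genes were called higher and 7.52% lower. With the offsets 0 genes of the pericyte and smooth muscle list and 0 of the stromal list passed. The part of these markers in the Ngfr result was not tested.

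Spop, the adaptor that brings substrates to the cullin 3 ubiquitin ligase, fell in the KO libraries. It held 555, 531 and 263 counts in KO libraries 1, 2 and 3, against 1879, 924 and 808 counts in WT libraries 1, 2 and 3. On the CPM scale the values were 49.1, 43.6 and 26.9 in KO libraries, against 106, 63.1 and 72.5 in WT libraries, and the groups did not overlap. The means were 39.8 ± 11.6 CPM in KO libraries and 80.5 ± 22.5 CPM in WT libraries (SD, n = 3 each), a difference of -1.01 on the log2 scale (SE 0.289, edgeR adjusted p = 0.0488). The offsets hardly moved the size, at -0.95, but ended the call (edgeR adjusted p = 0.0870), as did RLE scaling, the size factors of DESeq2, (-1.01, adjusted p = 0.0524), upper-quartile scaling (-0.97, 0.0539) and limma-voom (-1.02, 0.0528). The call was also lost without KO library 2 (-1.11, adjusted p = 0.0899), KO library 3 (-0.82, 0.156), WT library 1 (-0.77, 0.232) or WT library 3 (-1.12, 0.0730).

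Phb, the prohibitin that forms rings with Phb2 in the inner mitochondrial membrane, did not pass the threshold. It had 20.9, 26.6 and 31.3 CPM in KO libraries 1, 2 and 3, against 31.9, 40.3 and 29.0 CPM in WT libraries 1, 2 and 3. KO library 3 reached into the WT range. The means were 26.3 ± 5.24 CPM in KO libraries and 33.7 ± 5.86 CPM in WT libraries (SD, n = 3 each), a difference of -0.36 on the log2 scale (SE 0.250, edgeR adjusted p = 0.337). With the offsets it was -0.83 (edgeR adjusted p = 0.0690), the smallest adjusted p of the 10 genes in that fit.

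Slc35b1, the carrier that brings ATP into the endoplasmic reticulum, had 34.5, 28 and 31.8 CPM in KO libraries 1, 2 and 3, against 22.7, 29.5 and 23.3 CPM in WT libraries 1, 2 and 3. Its means of 31.4 ± 3.28 CPM in KO libraries and 25.2 ± 3.74 CPM in WT libraries (SD, n = 3 each) gave a difference of 0.32 on the log2 scale (SE 0.232, edgeR adjusted p = 0.360), which was -0.10 with the offsets. Kat7, the catalytic subunit of the HBO1 histone acetyltransferase complex, had 21.4, 28.9 and 25 CPM in KO libraries, against 22.9, 20.3 and 30.6 CPM in WT libraries. The groups overlapped, with a difference of 0.03 on the log2 scale (SE 0.251, edgeR adjusted p = 0.949). Fam117a had 9.20, 7.71 and 9.29 CPM in KO libraries, against 7.61, 8.39 and 10.3 CPM in WT libraries, and a difference of -0.005 on the log2 scale (SE 0.264, edgeR adjusted p = 0.991). The signs of the Kat7 and Fam117a values changed with the scaling (Kat7 -0.22 with total counts alone, Fam117a 0.05 with upper-quartile scaling), so no direction is given for either. With the offsets Kat7 was at 0.10 (edgeR adjusted p = 0.790) and Fam117a at -0.395 (0.314).

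**Figure D3:**
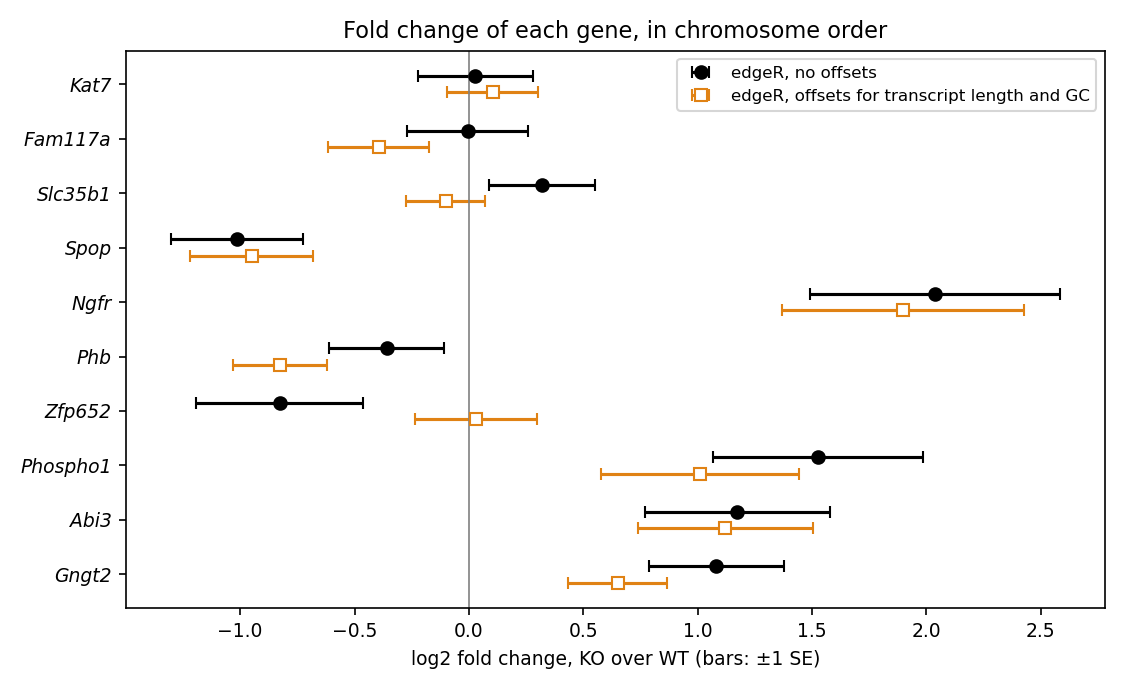
Log2 fold change of KO over WT for each of the 10 genes, in chromosome order from top to bottom, without offsets (black circles) and with offsets for length and GC of the longest transcript (orange squares); bars are 1 SE. Zfp652 moves from -0.83 to 0.03 and Phb from -0.36 to -0.83 between the fits, while Ngfr, Abi3 and Spop hardly move (Ngfr 2.04 and 1.90, Abi3 1.17 and 1.12, Spop -1.01 and -0.95). With offsets from the median transcript, not drawn, Abi3 was at 0.78.

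**Figure D4:**
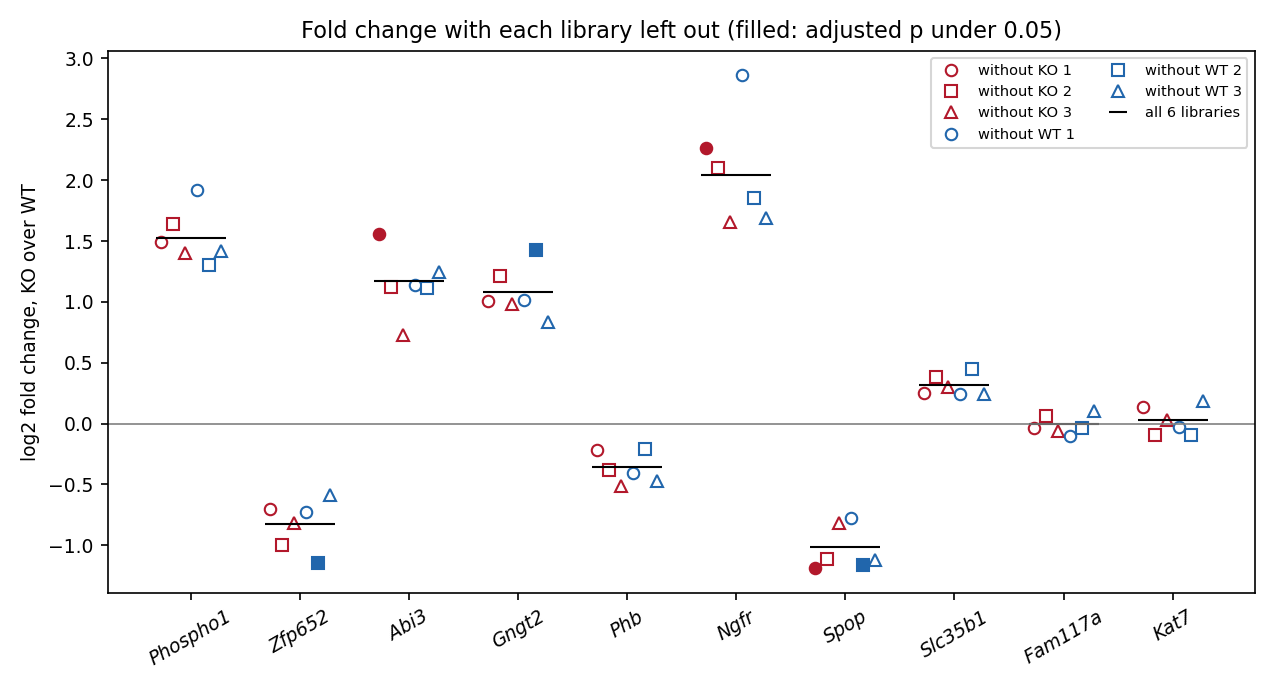
Log2 fold change of KO over WT for each gene with each library left out in turn (red symbols, a KO library left out; blue symbols, a WT library left out), with the value from all 6 libraries as a black line and filled symbols for an adjusted p under 0.05. Ngfr reaches 2.86 without WT library 1, Abi3 ranges from 0.73 to 1.56, and Fam117a and Kat7 lie on both sides of 0.

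Levels between genes were compared per kilobase of the longest transcript. In KO libraries the order was Gngt2 (76.9 CPM per kb), Slc35b1 (20.6), Phb (14.6), Spop (13), Kat7 (7.05), Fam117a (3.77), Abi3 (3.70), Phospho1 (0.796), Ngfr (0.589) and Zfp652 (0.512). In WT libraries it was Gngt2 (36.3 CPM per kb), Spop (26.3), Phb (18.7), Slc35b1 (16.5), Kat7 (6.92), Fam117a (3.79), Abi3 (1.64), Zfp652 (0.911), Phospho1 (0.266) and Ngfr (0.132). Phospho1 thus stood above Zfp652 per kb in KO libraries, at 0.644 to 0.909 against 0.424 to 0.613 CPM per kb, and below it in WT libraries, at 0.179 to 0.384 against 0.458 to 1.24. Only 211 of the 2029 exonic bases of Phospho1 lie in no exon of another gene, and how shared reads were assigned is not given. The length from which reads were counted is thus not known for Phospho1, Zfp652 and Abi3, and their places per kb depend on it. The ranges of Phospho1 and Ngfr overlapped in both groups, as did those of Phb and Spop, so the order of these neighbours is within the spread between libraries. In KO libraries the ranges of Fam117a and Abi3, and those of Ngfr and Zfp652, overlapped as well. In WT libraries the chain from Gngt2 to Slc35b1 overlapped at each step, whereas in KO libraries Gngt2 stood clear of all others.

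Genes whose pattern over the 6 libraries was most like that of Phospho1 were sought among 10718 protein-coding genes, as a description over few libraries that also share the group difference. The highest Pearson correlations of log2 CPM were those of Fez2 (0.991), the chemokine Cxcl12 (0.985), the bacterial sensor Nod2 (0.984), the actin-bundling protein Fscn1 (0.984) and the metalloprotease Adam15 (0.978). Fscn1 had 19.5, 16.3 and 18.6 CPM in KO libraries 1, 2 and 3, against 12.3, 6.14 and 7 CPM in WT libraries 1, 2 and 3, and rose (log2 fold change 1.09, edgeR adjusted p = 0.0454). Nod2 rose as well (1.28, edgeR adjusted p = 0.0498), while Fez2 (0.50), Cxcl12 (0.53) and Adam15 (0.61) did not pass the threshold. Among the neighbours, Ngfr came closest to the Phospho1 pattern with r = 0.925, and 0.606% of the candidate genes were closer. Gngt2 followed with 0.757, Slc35b1 with 0.592 and Abi3 with 0.586. Kat7 (0.036) and Fam117a (-0.035) showed almost none of it, and Zfp652 (-0.445), Phb (-0.664) and Spop (-0.689) ran the other way.

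The promoters of Phospho1 and of Ngfr, the neighbour whose pattern correlated most with that of Phospho1, are shown to let their letters be compared. RefSeq on GRCm38.p6 gave the 250 bases before the start of 8 of the 10 genes, with Abi3 and Gngt2 not matched. The Phospho1 stretch is chr11:95824250-95824499 on the plus strand and the Ngfr stretch is chr11:95587699-95587948 on the minus strand, and capitals mark GC boxes (GGGCGG), E-boxes (CACGTG) and TATA boxes (TATAAA) found on either strand, which may overlap each other.
Phospho1 promoter: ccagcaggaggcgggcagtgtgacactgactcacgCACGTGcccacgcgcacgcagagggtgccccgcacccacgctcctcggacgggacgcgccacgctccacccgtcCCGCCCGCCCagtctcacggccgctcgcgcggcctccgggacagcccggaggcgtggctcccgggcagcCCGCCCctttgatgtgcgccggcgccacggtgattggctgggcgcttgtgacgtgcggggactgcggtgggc
Ngfr promoter: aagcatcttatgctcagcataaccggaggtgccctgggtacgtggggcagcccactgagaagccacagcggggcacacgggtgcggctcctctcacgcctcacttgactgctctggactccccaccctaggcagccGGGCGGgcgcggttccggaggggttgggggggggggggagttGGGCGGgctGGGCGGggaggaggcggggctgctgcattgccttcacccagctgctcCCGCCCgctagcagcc
Phospho1 holds 3 GC boxes, 1 E-box and 0 TATA boxes, with 34 CpG sites and 75.6% GC. Ngfr holds 4 GC boxes, 0 E-boxes and 0 TATA boxes, with 16 CpG sites and 70.4% GC. Of 32851 mouse promoter stretches of the same length, 32.7% hold a GC box, 6.02% an E-box of this form and 12.4% a TATA box, and the median CpG count is 6. Neither stretch holds the cAMP response element TGACGTCA (1.55% of promoters) or the PPAR direct repeat DR1 (0.0335%), which says only that these letters are not in this window.

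Within 1 Mb of Phospho1 there were 29 tested genes, the 10 described and 19 others. Of the 19 others, 4 had an unadjusted p under 0.05 in edgeR, against 30.8% of all tested genes. In edgeR, DESeq2 or limma-voom 0 of the 19 passed the threshold, where edgeR called 9.16% of all tested genes, DESeq2 1818 of 12156 and limma-voom 892 of 12068. Thus all 3 calls in the window were Ngfr, Gngt2 and Spop, and 16 of the 29 had a log2 fold change above 0 and 13 below. The nearest tested gene on the Gngt2 side was the noncoding 4833417C18Rik, 26.7 kb from Phospho1, with 1.87 ± 0.160 CPM in KO libraries and 1.34 ± 0.0965 CPM in WT libraries (SD, n = 3 each) and a log2 fold change of 0.48 (edgeR adjusted p = 0.371). On the other side, past Kat7, it was the integrin gene Itga3 at 747.7 kb, with a log2 fold change of -0.02 (edgeR adjusted p = 0.974). A window of 2 Mb held 62 tested genes and 8 calls, beside the background of 9.16%, and so added 5 called genes, named here after their values were seen. These were the noncoding B230206L02Rik (3.00), which rose, and Mbtd1 (-1.25), Spag9 (-1.53), Tob1 (-1.19) and Acsf2 (-1.84), which fell. With the offsets B230206L02Rik kept its call (2.37, edgeR adjusted p = 0.0126), while Mbtd1 (-0.42, 0.264), Spag9 (-0.69, 0.0857), Tob1 (-1.27, 0.0621) and Acsf2 (-1.97, 0.0621) did not. B230206L02Rik was the 1 gene of all 12068 tested to pass with these offsets. Without offsets it was the 1 gene with an edgeR adjusted p under 0.01 (0.0057). All 5 lie on the Kat7 side, from 1222.6 kb to 1877.5 kb away.

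**Figure D5:**
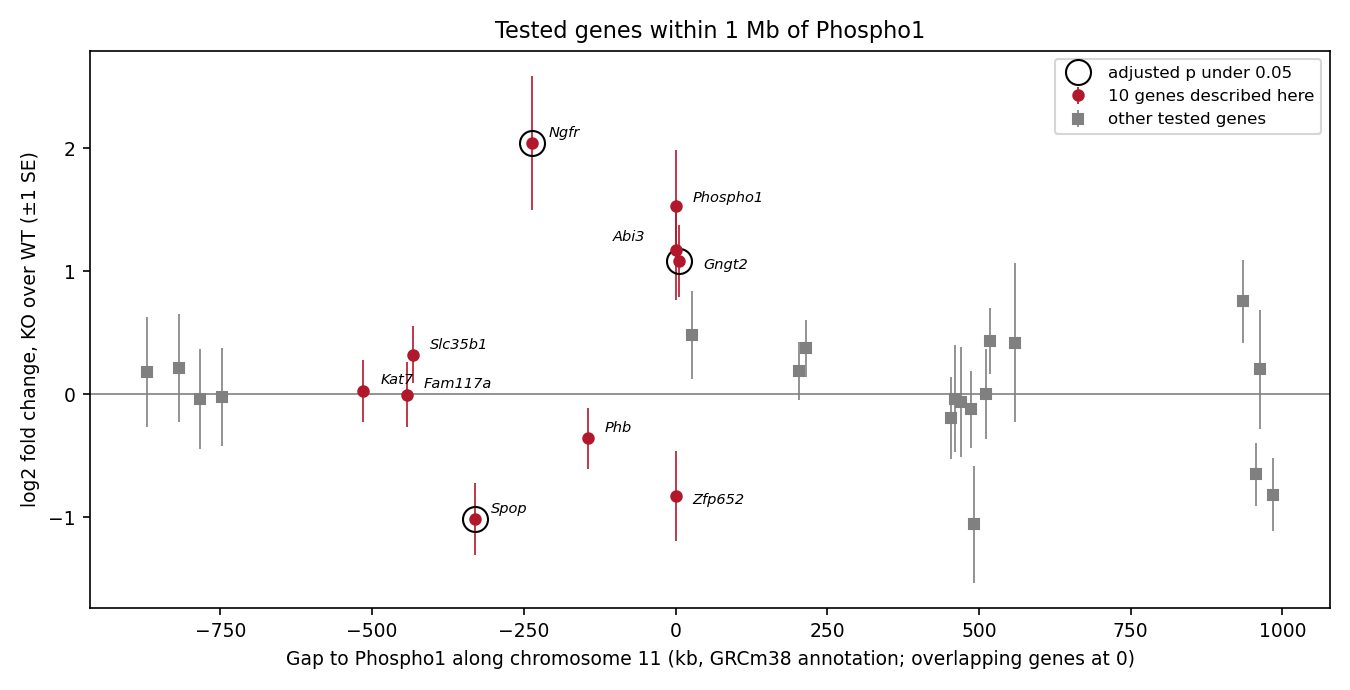
Log2 fold change of KO over WT (with 1 SE) for the 29 tested genes within 1 Mb of Phospho1, by gap to Phospho1 in kb along chromosome 11 in the GRCm38 annotation, with overlapping genes at 0. The 10 genes described are red circles and the other 19 grey squares; black rings mark the 3 calls, Ngfr, Gngt2 and Spop.

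Genes that work with the products of these neighbours were read from lists arranged by role. The edgeR counts of each list stand beside 9.16% of all tested genes called and 30.8% with an unadjusted p under 0.05. For the other methods, DESeq2 called 1818 of 12156 genes and limma-voom 892 of 12068. Of 14 genes that make, split or carry phosphocholine and phosphoethanolamine, 9 were tested and 1 fell, the lysophospholipase D Enpp2, with 94.2 ± 19.4 CPM in KO libraries and 167 ± 16.9 CPM in WT libraries (SD, n = 3 each, log2 fold change -0.83, edgeR adjusted p = 0.0466). With the offsets Enpp2 was at -0.64 and did not pass (edgeR adjusted p = 0.103). The median log2 fold change of those tested was -0.18. The paralogue Phospho2 had 36.7 ± 6.49 CPM in KO libraries and 37.1 ± 6.81 CPM in WT libraries (SD, n = 3 each). Of the 11 mineralization partners 5 were tested and 0 passed in edgeR, DESeq2 or limma-voom, with 0 at an unadjusted p under 0.05 in edgeR, and the bone matrix genes Ibsp, Bglap, Mepe and Dmp1 held no counts. Their median was -0.17. Alpl had a log2 fold change of -0.18 (edgeR adjusted p = 0.798), the pyrophosphate transporter Ank 0.23 (0.489) and the phosphate carrier Slc20a2 -0.17 (0.677).

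Partners of Spop and Kat7 included 5 genes that fell and 0 that rose, where over all tested genes 7.52% were called lower and 1.63% higher. Of 10 cullin 3 ligase genes, Cul3 itself fell, with 33.1 ± 1.72 CPM in KO libraries and 79.8 ± 13.8 CPM in WT libraries (SD, n = 3 each, log2 fold change -1.27, edgeR adjusted p = 0.0168). Spopl, the paralogue of Spop, fell as well (-1.30, edgeR adjusted p = 0.0493), and the list median was -0.34. Other genes of this list had positive values that did not pass, including the ring protein Rbx1 (0.78), Ube2m (0.70) and the ubiquitin-like Nedd8 (0.69), named after their values were seen. Of 13 genes of the Kat7 and related acetyltransferase complexes, 3 scaffold genes fell, namely Jade1 (-1.25, edgeR adjusted p = 0.0190), Jade3 (-1.37, 0.0348) and Brd1 (-1.40, 0.0390), with a list median of -0.26. With the offsets these 5 genes were at -0.42 for Cul3, -0.27 for Spopl, -0.69 for Jade1, -0.71 for Jade3 and -1.10 for Brd1, and 0 of them passed in edgeR, where 0.00829% of all tested genes did. Of the 5, 3 had an unadjusted p under 0.05, but all 5 were picked by their calls in the same counts. Over the whole lists 1 of 10 cullin 3 ligase genes and 5 of 13 genes of the Kat7 list did so, against 23.1% of all tested genes.

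Partners of the mitochondrial, signalling and actin genes gave 2 calls in edgeR, where 9.16% of all tested genes were called and 30.8% had an unadjusted p under 0.05. Over all genes DESeq2 called 1818 of 12156 and limma-voom 892 of 12068. Of 9 prohibitin-complex and inner-membrane protease genes, the fusion GTPase Opa1 fell (-1.51, edgeR adjusted p = 0.0185, -0.74 with the offsets), and Phb2 was at 0.64 (edgeR adjusted p = 0.121), with a list median of 0.02. Of 16 G protein beta and gamma subunits 9 were tested and Gng11 rose, with 206 ± 34.2 CPM in KO libraries and 88.3 ± 27.4 CPM in WT libraries (SD, n = 3 each, log2 fold change 1.22, edgeR adjusted p = 0.0230, 0.66 with the offsets). The median of those tested was 0.38. Of 12 Abi-family and WAVE-complex genes 9 were tested and 0 passed in edgeR, with 3 at an unadjusted p under 0.05, 1 call by DESeq2 and 0 by limma-voom. Their median was -0.295, and the smallest p was that of Nckap1 (-0.85, adjusted p = 0.0607), then Rac1 (0.53, 0.118) and Cyfip1 (-0.63, 0.127).

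The last lists gave 0 calls in edgeR, where 9.16% of all tested genes were called and 30.8% had an unadjusted p under 0.05. Over all genes DESeq2 called 1818 of 12156 and limma-voom 892 of 12068. Of the neurotrophins and their receptors 17 matched and 9 were tested, with 6 at an unadjusted p under 0.05, 1 call by DESeq2 and 0 by limma-voom. The sorting receptor Sort1, which pairs with Ngfr, was at -0.92 (edgeR adjusted p = 0.0723), Traf6 at -0.78 (0.0944) and Trp53 at 0.78 (0.105), with a list median of -0.32. Of 8 genes of the Slc35b family and the ATP supply of the endoplasmic reticulum, 2 had an unadjusted p under 0.05, and DESeq2 called 2 and limma-voom 0, with the chaperone Hspa5 at -0.89 (edgeR adjusted p = 0.0594), Slc35b2 at 0.87 (0.0797) and Slc25a5 at 0.58 (0.172). The median of these 8 was 0.41. Of 6 relatives and corepressors of Zfp652 and Fam117a 5 were tested and 2 had an unadjusted p under 0.05, with 0 calls by DESeq2 or limma-voom. Values were led by Cbfa2t2 at -0.98 (edgeR adjusted p = 0.0678), Fam117b at -0.80 (0.103) and Hdac3 at 0.47 (0.2), and the median was 0.02.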

How the data were processed

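The 6 mature brown fat libraries, 3 KO and 3 WT, were grouped by the labels. The authors deposited raw counts, whole reads per Ensembl gene in 1 file per library, with no normalization. STAR 2.5.4b and mouse build mm9 are named per the submitters' processing notes. Not given in the sources used here are the counting program, its strand setting, its annotation and its treatment of multi-mapped reads. Whether reads of overlapping genes, including those on opposite strands, were kept apart is therefore not known. Depth ran from 10576800 to 14239307 counts per library, and the precision of Phospho1 and Ngfr is limited by their few counts.

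Symbols, exons, gaps and sequences came from GENCODE M21 (GRCm38) and RefSeq promoters (GRCm38.p6), matched by identifier or symbol, and the exon overlaps are those of that annotation and not of the unknown one used for counting. Counts were tested in R 4.3.3 with edgeR 4.0.16 over all 12068 genes kept by filterByExpr (minimum count 10, minimum total 15), with TMM scaling, a robust two-sided quasi-likelihood F test and Benjamini-Hochberg adjustment at 0.05. CPM were computed here from the deposited counts, and SE were derived from the F statistic. Ratios of 2 genes used log2 of counts plus 0.5 and exact permutation. Scripts were tested on simulated data. Offsets for transcript length and GC were smooth trends per library (mgcv 1.9.3, basis size 6, prior count 2) entered in the edgeR model. 98.3% of tested genes had a length.

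Alternatives were RLE, upper-quartile and total-count scaling, DESeq2 1.42.0 with its own filter, limma-voom 3.58.1, edgeR's legacy method, no filter, 1 CPM in 3 libraries, a replicate block, each library left out, both offsets (longest or median transcript), removal of mitochondrial genome genes, an adjusted p of 0.01, windows of 0.5 and 2 Mb, and for the ratios a prior of 2 counts. Summing overlapping genes was added after seeing the data. Named genes are the 10 members, the 5 protein-coding genes most correlated with Phospho1 (mean of at least 1 CPM), the called and nearest tested neighbours, and in each of 10 partner lists the called genes or else up to 3 with the smallest p; genes named outside this rule were chosen after their values were seen. Some list genes are not reported here. The members, lists and offsets were chosen with earlier results of these data known. The libraries are separate samples in the labels, and the p-values measure the spread between pools of 3 mice.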

Additional observations from a re-analysis of the deposited data

How the results depend on the processing

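The log2 fold changes of Phospho1, Abi3, Gngt2, Phb, Ngfr and Spop kept their direction in every alternative fit of the single gene, and the calls of Gngt2, Ngfr and Spop held in 10, 10 and 9 of 18 such fits. The sum of Phospho1 and Zfp652 counts had a negative value (-0.54). Most of that sum is Zfp652, so its sign is not a turn of Phospho1. With the offsets for the longest transcript Zfp652 turned to 0.03 and Slc35b1 to -0.10. Fam117a, at -0.005, turned to 0.0056 with RLE, 0.0507 with upper-quartile scaling, 0.0091 with limma-voom and 0.0006 with the replicate block, and ran from -0.10 to 0.10 with a library left out. Kat7, at 0.03, turned to -0.22 with total counts alone and -0.0174 without a filter, and ran from -0.0949 to 0.19 with a library left out. The log2 difference in the Phospho1 to Abi3 ratio ran from -0.0004 without KO library 1 to 0.91 without KO library 3. The cause of these turns was not tested.

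Of the 10 genes, 1 passed with total counts alone, 0 with either offsets and 0 at an adjusted p of 0.01, and 0 to 3 with a library left out, with 0 without KO library 2, KO library 3, WT library 1 or WT library 3. Within 1 Mb of Phospho1 the count was 0 with either offsets and at an adjusted p of 0.01, 8 in a 2 Mb window, and 0 to 4 with a library left out. Over all genes 1105 passed, 197 higher and 908 lower. The count was 1818 with DESeq2, 1 with longest-transcript offsets, 227 with median-transcript offsets, 1 at an adjusted p of 0.01, and 0 to 2071 with a library left out, with 0 without WT library 1 and 2071 without WT library 2. The 1 gene with longest-transcript offsets and the 1 at an adjusted p of 0.01 were both B230206L02Rik. The split with total counts alone was 29 higher and 1389 lower, where the median over all genes was -0.23 in place of 0.03 (log2). Replicate numbers were not used as pairs in the main fit. Deviations of same-numbered KO and WT libraries correlated at 0.145, -0.534 and 0.032, and those of differently numbered libraries at -0.424 to 0.545. With 3 libraries per group these values cannot decide whether same-numbered libraries belong together. A fit with the replicate block called Gngt2, Ngfr and Spop among the 10 genes and 1199 genes in all, with Phospho1 at 1.56 (edgeR adjusted p = 0.0648). Counts under 30 per library limit Phospho1 and Ngfr.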
